A study of Mus musculus with 2 samples.

Results

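Replication-independent histone variants were described across the newborn mouse spleen. The group was a fixed list of 10 gene symbols, H3f3a, H3f3b, H2afz, H2afv, H2afx, H2afj, H2afy, H2afy2, H1f0 and H1fx. All 10 were found by Ensembl identifier among the 43346 Ensembl genes of the gene tables. The data are total RNA-seq of whole spleens of B6NCrl mice at postnatal day 0, with 1 library from each of 2 pups of 1 pregnancy and no treatment or mutant. Pup 2 gave replicate 1 and pup 1 gave replicate 2. Sex was not collected, and both pups carry the same donor identifier. Library totals were 33122187 estimated counts for replicate 1 and 32162543 for replicate 2. The design holds 1 group and no contrast between conditions, so the values describe levels and the difference between 2 littermates, and no p-value is given.

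Most histones are made in S phase from clustered genes whose mRNAs end in a stem-loop and carry no poly(A) tail. Replication-independent variants come from single genes whose mRNAs are mostly spliced or polyadenylated, and they can be made and placed into chromatin outside S phase. Spleen of the newborn mouse is a site of blood formation, so the tissue holds dividing erythroid and myeloid precursors beside lymphocytes, macrophages and stroma.

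All 10 members were detected, meaning at least 1 TPM (transcript abundance corrected for length and library total) in both libraries. The background is that 31.0% of all Ensembl genes passed the same threshold. The summed level of the members was 5687.87 TPM in replicate 1 and 5379.27 TPM in replicate 2 (mean 5534 ± 218, SD, n = 2). H3f3a, H2afz and H3f3b each exceeded 1000 TPM in both libraries and together held 85.7% of that sum. H2afx, H2afv, H2afy, H2afj and H1f0 formed a middle range, and H2afy2 and H1fx were lowest. The highest member, H3f3a, was 356-fold above the lowest, H1fx, by mean TPM. Of the 9 pairs of neighbours in the order by mean TPM, 7 had ranges over the libraries that did not overlap. The exceptions were H2afy with H2afj and H2afy2 with H1fx, whose order is not resolved. H2afx and H2afv were separated by little, at 238.61 TPM for the lowest H2afx value and 233.14 TPM for the highest H2afv value.

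**Figure D1:**
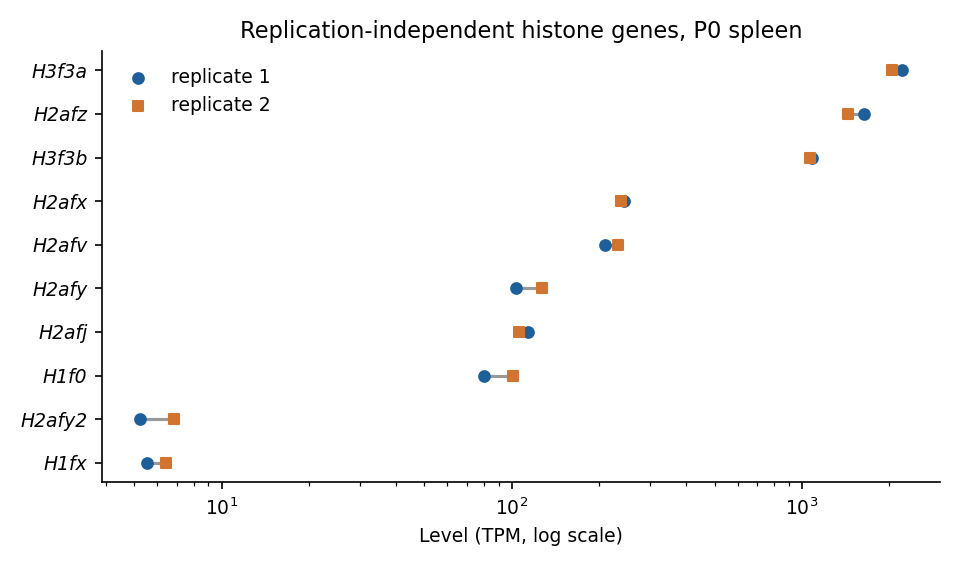
Level of each of the 10 members in TPM on a log axis, with a circle for replicate 1, a square for replicate 2 and a line joining them. H3f3a, H2afz and H3f3b lie above 1000 TPM in both libraries, while H2afy2 and H1fx lie below 10 TPM.

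H3f3a and H3f3b both encode H3.3, the H3 variant that HIRA and the DAXX and ATRX pair place into chromatin independently of replication. H3f3a (chr1:180800832-180813943, minus strand, coordinates of the GRCm38 or mm10 build throughout) was at 2207.24 TPM in replicate 1 and 2049.71 TPM in replicate 2 (2128 ± 111 TPM), rank 33 of all Ensembl genes. H3f3b (chr11:116021912-116027962, minus strand) was at 1084.19 and 1063.59 TPM (1074 ± 14.6 TPM), rank 82. H3f3a was therefore the higher of the pair in both pups, by 2.04 times in replicate 1 and 1.93 times in replicate 2. Its share of the summed TPM of the pair was 66.4% ± 0.865. By estimated counts, which are not corrected for length, the ratios were 1.15 and 1.02. The deposited mean length in replicate 1 was 993.31 nt for H3f3a and 1684.54 nt for H3f3b.

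The coding sequences of the pair show how far these genes diverged at the DNA level while encoding the same protein. Over 411 nt of coding sequence, stop codon included, 76.9% of bases were identical. Among the 136 codons and the stop codon, 83 differed, and 0 of these changed the residue. Against the replication-dependent H3 gene Hist1h3i, 5 codons of H3f3a changed the residue. Codons 83 to 102, counted from the start codon as 1, hold 4 of those 5, at 88, 90, 91 and 97. Against Hist2h3b, another replication-dependent H3 gene, 4 codons of H3f3a changed the residue, at 32, 88, 90 and 91. Codon 97 was not among them. The stretch includes residues by which H3 chaperones are known to tell H3.3 from the replication-dependent H3. The sequences were read from the GENCODE M21 transcripts, with H3f3a-205 for H3f3a and H3f3b-201 for H3f3b. Capitals mark codons 88, 90, 91 and 97.
H3f3a: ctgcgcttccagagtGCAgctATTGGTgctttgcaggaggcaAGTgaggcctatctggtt
H3f3b: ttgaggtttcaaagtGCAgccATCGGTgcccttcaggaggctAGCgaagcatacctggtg
Hist1h3i: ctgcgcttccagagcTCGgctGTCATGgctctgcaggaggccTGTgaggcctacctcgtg
In the printed stretch the H3f3a and H3f3b genes differ at many bases outside the capitals.

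Both H3.3 genes were quantified as several transcripts, and 1 transcript led in each. H3f3a-201 (888 nt) held 75.9% of the TPM of H3f3a in replicate 1 and 73.1% in replicate 2. H3f3a-204 (481 nt) held 14.2% and 16.9%, and 41.4% of its 100-nt windows occurred in transcripts of other genes. H3f3a-205, whose stretch after the stop codon is 2245 nt against 380 nt in H3f3a-201, held 8.43% and 8.28% of TPM. The annotated coding sequence is 411 nt in H3f3a-205, 408 nt in H3f3a-201 and 357 nt in H3f3a-204. The model of H3f3a-204 has 0 nt after its coding sequence. The comparison with H3f3b above used H3f3a-205 and not the leading H3f3a-201. By estimated counts, which are not corrected for its length of 2841 nt, H3f3a-205 held 25.8% of the gene on average. H3f3b-201 (1993 nt) held 72.5% and 78.8% of the TPM of H3f3b, and the non-coding H3f3b-204 held 25.4% and 19.4%. The share of H3f3b-201 thus differed between the pups by more than that of H3f3a-201.

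Reads from H3f3a could in part not be assigned uniquely. Of the 789 windows of 100 nt in H3f3a-201, 113 (14.3%) occurred letter for letter in transcripts of other genes. The largest of these by level was H3f3c, a processed pseudogene on chromosome 2, listed at 451.54 TPM in replicate 1 and 422.07 TPM in replicate 2. Of the 13 genes that share windows with H3f3a, only some were among the quantified genes. Those quantified together held estimated counts equal to 7.42% and 7.62% of those of H3f3a. How the reads of shared windows were divided among these genes cannot be checked from the tables. The deposited posterior SD of the H3f3a count in replicate 1 was 126.08 on 62216.9 counts, and that of H3f3c was 122.85 on 4440.36. In H3f3b-201 only 59 of 1894 windows (3.12%) were shared. H3f3a also overlaps Gm17275 (4.81 and 4.67 TPM) and H3f3aos on the opposite strand. The sources used here do not say whether reads were counted by strand.

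H2afz and H2afv encode H2A.Z.1 and H2A.Z.2, the H2A variants that the SRCAP and p400 complexes exchange into nucleosomes around promoters. H2afz (chr3:137864487-137866922, plus strand) was at 1633.66 TPM in replicate 1 and 1447.31 TPM in replicate 2 (1540 ± 132 TPM), rank 54. H2afv (chr11:6427229-6444443, minus strand) was at 210.17 and 233.14 TPM (222 ± 16.2 TPM), rank 503. H2afz exceeded H2afv in both pups, by 7.77 times and 6.21 times, and held 87.4% ± 1.75 of the TPM of the pair. Their coding sequences of 387 nt were 79.1% identical in bases. Among the 128 codons and the stop codon, 74 differed, and 3 of these changed the residue.

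In H2afz the leading transcript was H2afz-201, with 84.9% and 85.7% of the TPM of the gene. H2afz-207, whose annotated coding sequence is 318 nt rather than 387 nt, held 14.5% and 13.6%. In H2afv the leader depended on the unit. The short H2afv-201 (519 nt) held 69.9% and 71.1% of TPM, while the long H2afv-202 (1633 nt) held 61.1% and 59.8% of estimated counts. H2afv-202 carries the full coding sequence of 387 nt, and H2afv-201 one of 273 nt. H2afv was the 1 member among the 5 with several transcripts in which TPM and counts gave different leaders. Of the 970 windows in H2afz-201, 288 (29.7%) were shared with other genes, chiefly the processed pseudogene Gm8203 on chromosome 6, listed at 229.66 and 207.19 TPM. The estimated counts of the 2 genes sharing windows with H2afz equalled 4.35% and 4.42% of its own. H2afv shared 0 windows.

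H2afx encodes H2AX, whose tail is phosphorylated around DNA double-strand breaks, and H2afj encodes H2A.J, a variant known to accumulate in senescent cells. H2afx (chr9:44334694-44336077, plus strand) was at 244.49 TPM in replicate 1 and 238.61 TPM in replicate 2 (242 ± 4.16 TPM), rank 456. H2afj (chr6:136808244-136810074, plus strand) was at 114.04 and 106.13 TPM (110 ± 5.59 TPM), rank 1069. H2afx was 2.14 and 2.25 times as high as H2afj. Both are quantified as 1 transcript without introns, and the deposited length of the H2afj transcript is 1827 nt against 1831 nt in M21. The end of the H2afx coding sequence, codons 135 to 144 with the stop codon included, is shown because it holds the phosphorylated motif, in capitals.
H2afx coding end: aaggcctcgcaggccTCTCAGGAGTACtga

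Among the members, H2afx alone carried the histone stem-loop motif after its stop codon. The motif was searched on the sense strand of GENCODE M21 transcripts by the consensus of replication-dependent histone mRNAs. It was found in 1 of 10 members, in 24 of the 36 replication-dependent H2A, H3 and H1 genes (66.7%), and in 51 of 21877 protein-coding genes (0.233%). H2afx is set beside Hist1h2ap, the most abundant replication-dependent H2A gene here, with the stem-loop of 16 nt in capitals.
H2afx stem-loop: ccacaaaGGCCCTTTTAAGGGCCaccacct
Hist1h2ap stem-loop: aaaaaaaGGCTCTTTTCAGAGCCatc
The stem-loop begins 46 nt after the stop codon in H2afx and 38 nt after it in Hist1h2ap. In the annotated transcripts 822 nt follow it in H2afx and 3 nt in Hist1h2ap. H2afx is known to yield both a short stem-loop mRNA and a long polyadenylated one, and the tables quantify only the long one, of 1384 nt. A poly(A) signal, AATAAA or ATTAAA, lay in the last 50 nt of the longest protein-coding transcript in 8 of 10 members, H2afx included. The members without it were H2afy (at H2afy-201, not the longer non-coding H2afy-205) and H3f3b, the latter at H3f3b-202, which held 0.0912% of that gene's TPM. In the transcript leading by TPM the signal was present in 7 of 10 members, H3f3b among them, and not found in H2afy, H2afv and H3f3a. In the longest protein-coding transcript it was present in 5 of 36 replication-dependent genes and in 72.2% of all protein-coding genes. H2afx shared 18 of 1285 windows (1.40%) with 16 genes, most of them replication-dependent H2A genes. These 16 genes, Hist1h2ap included, held estimated counts equal to 1130% and 913% of those of H2afx. The deposited posterior SD of the H2afx count in replicate 1 was 16.73 on 9902.43 counts.

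H2afy and H2afy2 encode macroH2A1 and macroH2A2, H2A variants with a large extra macro domain that are enriched on silenced chromatin. H2afy (chr13:56073619-56136361, minus strand) was at 103.34 TPM in replicate 1 and 126.9 TPM in replicate 2 (115 ± 16.7 TPM), rank 1020. H2afy2 (chr10:61738665-61784147, minus strand) was at 5.23 and 6.87 TPM (6.05 ± 1.16 TPM), rank 8973. H2afy was 19.8 and 18.5 times as high as H2afy2. Both were lower in replicate 1 than in replicate 2. H2afy2 overlaps Aifm2 on the opposite strand, which was at a like level of 6 and 6.64 TPM, so its value is uncertain where strand was not used. Neither macroH2A gene shared any 100-nt window with another gene.

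Alternative splicing of a pair of mutually exclusive exons makes the macroH2A1.2 and macroH2A1.1 isoforms of H2afy, and only macroH2A1.1 is known to bind ADP-ribose. H2afy-201 has the exon of 100 nt (chr13:56089758-56089857, minus strand), which is that of macroH2A1.2. H2afy-202 has the exon of 91 nt (chr13:56088252-56088342, minus strand), which is that of macroH2A1.1. Both are exon 6 of 9 and lie in the coding sequence. They are shown with 12 nt of the common neighbouring exons on each side in lower case and the alternative exon in capitals.
H2afy-201 exon: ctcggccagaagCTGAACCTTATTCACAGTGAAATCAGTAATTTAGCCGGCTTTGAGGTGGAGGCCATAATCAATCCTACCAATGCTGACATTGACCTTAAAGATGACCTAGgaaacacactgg
H2afy-202 exon: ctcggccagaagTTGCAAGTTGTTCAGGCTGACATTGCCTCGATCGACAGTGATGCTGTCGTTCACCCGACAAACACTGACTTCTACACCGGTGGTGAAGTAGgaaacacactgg
H2afy-201, the macroH2A1.2 form, was at 76.17 TPM in replicate 1 and 89.48 TPM in replicate 2. H2afy-202, the macroH2A1.1 form, was at 6.59 and 9.27 TPM. The macroH2A1.1 form therefore held 7.96% and 9.39% of both coding forms (8.68% ± 1.01, n = 2), and the macroH2A1.2 form was 11.6 and 9.65 times as high. The rest of the gene's TPM lay mostly in non-coding models, of which H2afy-204 held 12.1% and 11.1% and H2afy-203 held 5.42% and 8.12%. The deposited length of H2afy-202, 2037 nt, differs from the 1933 nt of GENCODE M21, so its printed exon comes from a later version of the transcript.

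**Figure D2:**
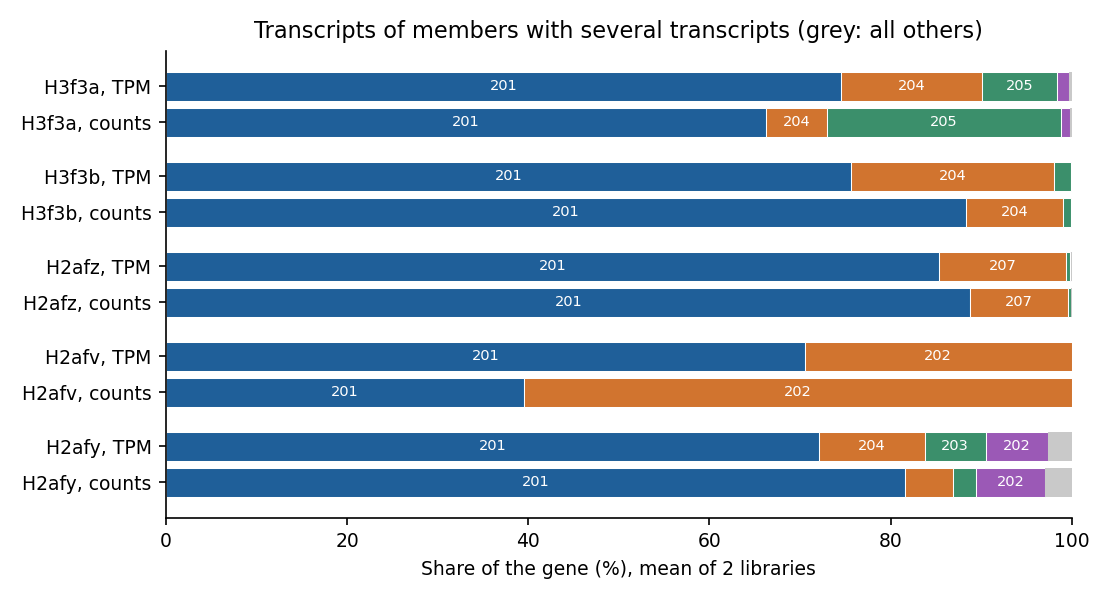
Share of each gene held by its transcripts, in percent as the mean of 2 libraries, for the 5 members with several quantified transcripts, once by TPM and once by estimated counts. The number on a segment is the transcript's suffix, colours rank transcripts by TPM within a gene, and grey holds all others. In H2afv the shorter transcript has the larger share by TPM and the longer one the larger share by counts.

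H1f0 and H1fx encode linker histones H1.0 and H1.X, which bind DNA at its entry to the nucleosome. H1.0 is known to accumulate in cells that stop dividing and differentiate. H1f0 (chr15:79028450-79030504, plus strand) was at 79.97 TPM in replicate 1 and 100.6 TPM in replicate 2 (90.3 ± 14.6 TPM), rank 1309. H1fx (chr6:87980421-87981637, minus strand) was at 5.54 and 6.41 TPM (5.98 ± 0.615 TPM), rank 9005. H1f0 was 14.4 and 15.7 times as high as H1fx. Both H1 genes are quantified as 1 transcript of 1 exon and shared 0 windows with other genes, by the GENCODE M21 models. The deposited length of the H1f0 transcript is 2287 nt and that in M21 is 2055 nt. H1fx rested on the fewest reads of all members, 195.24 and 213 estimated counts, and overlaps the antisense gene Gm5577 (0.61 and 1.05 TPM).

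The members' part of the histone mRNA differed widely between the H2A, H3 and H1 classes. The class TPM is the sum of the members and the replication-dependent genes of the class. It leaves out Cenpa, the centromeric H3, at 267.72 TPM in replicate 1 and 238.51 TPM in replicate 2. The H3 share with Cenpa was not computed. In H3, H3f3a and H3f3b held 81.6% of the class TPM in replicate 1 and 84.2% in replicate 2 (82.9% ± 1.81), against 12 replication-dependent genes. In H2A, the 6 members held 19.6% and 22.3% (20.96% ± 1.94), against 18 replication-dependent genes of which 15 were detected. In H1, H1f0 and H1fx held 28.2% and 35.3% (31.7% ± 5.001), against 6 replication-dependent genes of which 5 were detected. By estimated counts the members' shares were higher in each class, at 93.0% in H3, 41.6% in H2A and 53.3% in H1, since counts are not corrected for transcript length.

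One gene shaped the H2A share. Hist1h2ap, at 8364.78 and 6526.32 TPM, held 87.6% of the replication-dependent H2A level, and without it the 6 H2A members held 68.0% of the class. The next replication-dependent H2A genes were Hist1h2ae at 280 ± 34.2 TPM and Hist1h2ak at 185 ± 13.4 TPM, both below H2afz. Hist1h2ae was above every other H2A member in both libraries. Hist1h2ak was below H2afx and H2afv but above H2afy, H2afj and H2afy2. The highest replication-dependent H3 genes were Hist1h3i at 214 ± 37.1, Hist2h3b at 213 ± 38.2 and Hist1h3d at 70.4 ± 17.7 TPM, each below H3f3b. In H1, Hist1h1e (73.7 ± 4.26 TPM), Hist1h1c (55.4 ± 3.83 TPM) and Hist1h1b (52.8 ± 9.94 TPM) were each below H1f0 and above H1fx. Replication-dependent genes of a class are near copies of each other, so the values of single ones are uncertain. How well a library with a low-input cDNA kit captures mRNAs without poly(A) tails was not tested, and these shares are of the RNA in the libraries.

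**Figure D3:**
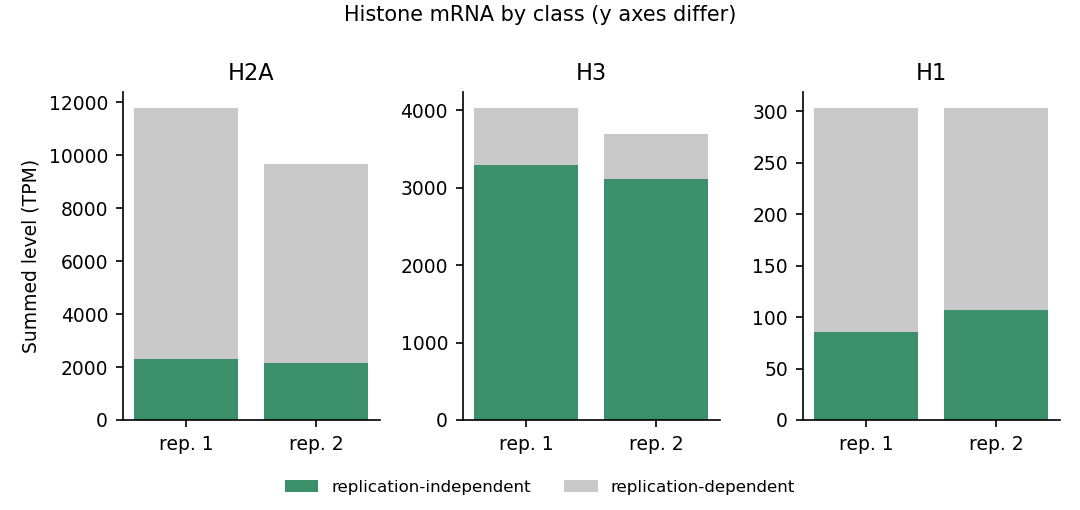
Summed level in TPM of members (green) and replication-dependent genes (grey) of each histone class in each library. Cenpa is not included. Each panel has its own y axis from 0. Members make up most of H3 and the smaller part of H2A and H1 in both libraries.

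Most other listed histone variants were not detected. Of 9 listed variants 2 were detected, namely Cenpa, the centromeric H3, at 267.72 and 238.51 TPM, and Hist3h2a at 23.95 and 22.84 TPM. H2afb1, H2afb2, H2afb3, H1foo, Hils1 and H1fnt, known mainly from testis or oocyte, had 0 counts in each library, which at these depths leaves room for up to 0.0906 CPM (counts scaled to library size) in replicate 1 and 0.0933 CPM in replicate 2, for counting error only. Hist1h1t, the testis H1, had 1 count in replicate 1 and 0 in replicate 2. The range of Cenpa over the libraries overlapped that of H2afx. Hist3h2a and Hist1h1t also count among the replication-dependent genes of their classes above.

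The machinery that handles the variants was detected in full, at 43 of 43 genes over 5 lists, against 31.0% of all Ensembl genes. For H3.3 deposition, 7 of 7 genes were detected, led by the remodeller Atrx (76.2 ± 10.6 TPM), the H3 and H4 chaperone Asf1a (50.2 ± 5.44 TPM) and the chaperone Daxx (24.2 ± 0.502 TPM). Hira was lowest of the 7, at 5.74 and 5.55 TPM. All 7 were far below both H3.3 genes. Among 15 of 15 detected genes for H2A.Z exchange, Anp32e, which removes H2A.Z, was highest at 226.33 and 201.06 TPM (214 ± 17.9 TPM). It was followed by the actin-related subunit Actl6a (87.5 ± 6.91 TPM) and the ATPase Ruvbl2 (74.3 ± 2.81 TPM).

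H2AX signalling genes were detected in 13 of 13 cases, with a median of 12.045 TPM. The medians of the other variant lists were 11.78 TPM for H3.3 deposition and 45.805 TPM for H2A.Z exchange. They were 19.895 TPM for macroH2A splicing and 13.055 TPM for the ADP-ribose genes. The highest were the ubiquitin ligase Rnf8 (31.1 ± 1.28 TPM), Rad50 of the break-sensing MRN complex (25.5 ± 1.75 TPM) and the kinase Baz1b (22.1 ± 0.544 TPM). Of the 5 splicing regulators listed for macroH2A1, all were detected, led by the helicase Ddx5 (180 ± 7.50 TPM), Mbnl1 (121 ± 0.346 TPM) and Qk (19.9 ± 1.38 TPM). The protein of Qk is known to favour the macroH2A1.1 exon. Of the 3 genes around ADP-ribose, the polymerase Parp1 was highest (47.5 ± 1.92 TPM), then the hydrolase Parg (13.1 ± 1.15 TPM) and Macrod1 (6.78 ± 0.693 TPM).

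Of the genes for the replication-coupled side, all 8 replication-coupled chaperones were detected, with a median of 91.0 TPM, led by Rbbp4 (282 ± 22.7 TPM), the FACT subunit Ssrp1 (151 ± 8.95 TPM) and Mcm2 (116 ± 12.9 TPM). Of 6 genes for the 3′ end of stem-loop mRNAs 5 were detected, with a median of 18.0 TPM over the 6, led by the stem-loop binding protein gene Slbp at 379.52 and 306.53 TPM, then Casp8ap2 (38.0 ± 1.82 TPM) and Lsm10 (28.4 ± 0.403 TPM). Zfp473, a zinc-finger partner of that machinery, was below the threshold at 0.51 and 0.29 TPM.

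Promoters of 9 of the 10 members matched the RefSeq promoter table on GRCm38, with no entry used for H2afx. In windows of 250 bases before to 50 after the start, searched on both strands, CCAAT was present in 6 of the 9 (H2afz, H2afy2, H2afv, H2afj, H3f3a and H3f3b) against 37.9% of 27025 promoters. The GC box GGGCGG was present in 7 of 9 against 35.9%, and TATAAA in H3f3b alone against 14.2%. None of these motifs can contain another. A match is a description of letters only.

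Between the pups, the median absolute log2 ratio was 0.18 over the members and 0.18 over all tested genes. The tested genes start at a mean of 20 counts, while 8 of the 10 members had a mean of at least 1000. A median over genes of like counts was not computed. On TMM-scaled CPM, 0 of 10 members were at least 1.5-fold apart, while 2.54% of 15506 tested genes were at least that much higher in replicate 1 and 4.57% in replicate 2. At those background shares a count of 0 among 10 is no result about the members. Of the genes past 1.5-fold, 35.7% were higher in replicate 1 under TMM and 21.9% under library-size scaling. In 6 members the log2 ratio of replicate 1 over replicate 2 was above 0, as it was in 48.9% of tested genes. H2afz had the largest fold, 1.24 in favour of replicate 1 (log2 ratio 0.31), on 47918.9 against 40149.7 estimated counts. H3f3a followed with 1.21-fold (0.27), H2afj with 1.18-fold (0.24), H2afx with 1.13-fold (0.18) and H3f3b with 1.08-fold (0.11). H2afy2 was 1.19-fold higher in replicate 2 (−0.25), H1f0 1.14-fold (−0.19), H2afy 1.10-fold (−0.14) and H1fx 1.05-fold (−0.07). H2afv had a log2 ratio of 0.02, which turned negative under library-size scaling and in deposited TPM.

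Under TMM scaling, counting error alone covered the difference in 2 members. The exact Clopper-Pearson 95% interval of the ratio was 0.973 to 1.05 for H2afv and 0.780 to 1.16 for H1fx. In the other 8 members the interval did not hold 1, as in 48.8% of all tested genes. At a mean of at least 1000 counts it did not hold 1 in 7 of 8 members and in 69.0% of 6017 genes, so most genes at these counts passed counting error. These intervals hold counting error only and say nothing of the spread between animals, which 2 libraries of 1 litter cannot give.

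The replication-dependent genes of each class, summed, lay further toward replicate 1 than the members of that class. In H2A the log2 ratio was 0.48 for the replication-dependent sum and 0.23 for the members. Hist1h2ap held 100978 of the 115078 counts of that sum in replicate 1 and 74325.8 of 86090.3 in replicate 2. The H2A value is therefore largely that of 1 gene, and the ratio without it was not computed. In H3 it was 0.49 against 0.19, and in H1 it was 0.21 against −0.19. H1f0 held 5515 of the 5710.24 counts of the H1 members in replicate 1 and 6545 of 6758 in replicate 2. The H1 member value is therefore largely that of H1f0. Within the replication-dependent H1 list of 5 genes, all detected, the values ran from 0.00 for Hist1h1c to 0.56 for Hist1h1a, with a median of 0.44. These differences compare 2 libraries and have no replicate check.

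Marker lists for other features moved between the same libraries. Proliferation genes were all 8 higher in replicate 1 (median log2 ratio 0.37, with Rrm2 1.52-fold apart), as were all 8 replication-coupled chaperones (median 0.29) and all 6 erythroid genes (median 0.34). All 7 neutrophil genes (median −0.38), all 7 macrophage genes (median −0.40), all 6 stromal and endothelial genes (median −0.21) and all 5 B-cell genes (median −0.32, with Pax5 below 1 TPM in replicate 1) were higher in replicate 2. The T-cell list had a median of −0.24 over 4 genes, with Cd3g 1.62-fold apart and Cd3e below 1 TPM. The 6 genes of the spleen-patterning list that matched were all detected, led by Tcf21 (125 ± 15.3 TPM), Tlx1 and Nkx2-3, and all were higher in replicate 2 (median −0.34). Pancreatic acinar genes were the largest contrast, at 845.44 TPM summed in replicate 1 and 297.68 TPM in replicate 2. All 5 tested genes of that list, Ctrb1, Cela2a, Clps, Cpa1 and Cel, were at least 1.5-fold higher in replicate 1 (median 1.80). Pnlip of the same list had 5 and 0 counts. Medians for the variant machinery were 0.05 for H3.3 deposition, 0.09 for H2A.Z exchange, 0.14 for H2AX signalling, −0.03 for macroH2A splicing and −0.01 for the ADP-ribose genes. The median for histone mRNA ends was 0.21, and Zfp473 of that list was 1.92-fold apart on 46.01 and 24.01 counts. In whole tissue, fewer cells of a type and less RNA per cell cannot be told apart, and the part of these markers in the members' ratios was not tested.

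**Figure D4:**
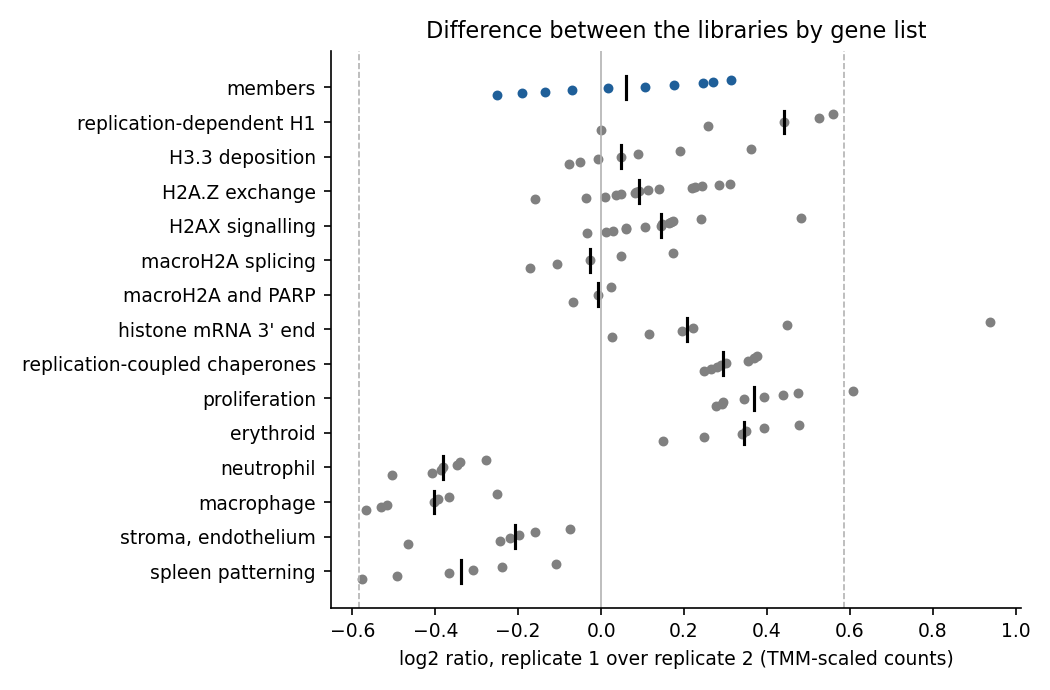
log2 ratio of replicate 1 over replicate 2 for the tested genes of each list drawn, with 1 point per gene. A bar marks each list's median, and dashed lines mark 1.5-fold in either direction. The pancreatic acinar, B-cell, T-cell and other-variant lists are not drawn. The 10 members, in blue, lie between −0.25 and 0.31, while neutrophil and macrophage genes lie below 0 and proliferation genes above 0.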

How the data were processed

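The members and gene lists were chosen with earlier results of these data known. Total RNA above 200 nt, extracted with mirVana, entered libraries at 10 ng with spike-ins, per the labels, which also list the manual of a SMARTer Ultra Low kit. The authors deposited a gene and a transcript table per library on mm10, and the text file that goes with each library names GENCODE M4 gene models. Aligner, quantifier and versions: not given in the sources used here. Expected counts, as deposited, are estimates, since reads that match several features were divided among them. The deposited TPM is relative to all features, spike-ins included. The deposited posterior mean TPM served as an alternative. Names and sequences came from GENCODE M21, which matched 42462 of 43346 Ensembl genes; 1 listed symbol, Bapx1, did not match.

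Levels are deposited TPM, and transcript shares are percent of the gene's deposited TPM; the authors' own percent column differed by at most 0.00701 points. For differences, expected counts were rounded, genes were kept at a mean of 20 counts or more, and log2 CPM was computed with TMM in edgeR 4.0.16 (R 4.3.3) at a prior count of 2, a step tested on simulated data. With 1 library per pup there is no test, and SDs over the libraries hold technical and animal spread together. Counting intervals treat reads as independent molecules, which reads without molecular identifiers are not. Windows of 100 nt were compared between all annotated transcripts. The text names all 10 members, the 3 highest genes of each pathway list, those past 1.5-fold and those below 1 TPM, and the 3 highest replication-dependent genes of each class; for cell-type lists it gives counts and medians. Hira, Tcf21, Tlx1, Nkx2-3, Hist1h1a and the copies and overlapping genes of members were named after their values were seen. Alternatives were posterior mean TPM, counts, TPM without adult globins, other thresholds, DESeq2 1.42.0 size factors, library size, prior count 0.5, other filters, and each library alone.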

Additional observations from a re-analysis of the deposited data

How the results depend on the processing

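No paired analysis was possible because the libraries form 1 group. All 10 members were detected at 0.1 TPM and in each library alone, and 8 at 10 TPM; over the 7 pathway lists the 56 detected genes became 57 and 43. Without adult globins the summed level rose from 5534 to 7557 TPM, and each library alone gave 5379 to 5688. By counts the members' shares were 41.6% in H2A, 93.0% in H3 and 53.3% in H1. Each library alone gave 19.6% to 22.3%, 81.6% to 84.2% and 28.2% to 35.3%, and 7.96% to 9.39% for the macroH2A1.1 share. Alternatives chosen after seeing the data gave 68.0% in H2A without Hist1h2ap. In H3 they gave 84.7% with the quantified pseudogenes that share windows added to the members. Posterior mean TPM moved the summed level, the class shares and the macroH2A1.1 share by less than 1 SD, but the levels of H2afx (to 237 TPM) and H3f3b (to 1054 TPM) by more. Ordered by CPM, 5 members changed place.

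Of all tested genes 394 were at least 1.5-fold higher in replicate 1 and 709 in replicate 2. The counts were 119 and 389 from deposited TPM with a pseudocount of 1, 117 and 241 with the filter at 100 counts, and 2996 and 2754 without a filter, where low counts enter. Library-size scaling gave 303 and 1079. It put 21.9% of such genes higher in replicate 1, against 35.7% under TMM and 23.4% in deposited TPM, and moved the median log2 ratio of all tested genes from −0.01 to −0.11. In each of these alternatives 0 members were 1.5-fold apart, and H2afv alone changed sign, under library size and deposited TPM. Under library size the log2 ratios of 8 members fell outside their counting interval under TMM, and so did 8 in deposited TPM. The log2 ratio of H3f3b was 0.006 under library size and that of H2afv −0.08. Counting intervals were not recomputed under these scalings. Depth limits H1fx and H2afy2 most.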
